A study of Homo sapiens with 12 samples.

Results

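Amino acid transporters of the plasma membrane were described in RNA-seq libraries of 2 related human colon cancer lines. The 10 genes were taken by name from a list of plasma membrane carriers, by a rule that uses no measured value, though the list was drawn up with earlier results of these data known: SLC7A5, SLC3A2, SLC7A1, SLC7A2, SLC7A6, SLC1A4, SLC1A5, SLC38A1, SLC38A2 and SLC6A14. They are 10 of the 60617 genes in the deposited tables, and 9 of them were among the 15692 genes with enough reads for a test. The lines were HCT 116p53-/-, a colorectal carcinoma line, and a sub-line of it labelled RPL3 KO, which the paper calls uL3ΔHCT 116p53-/- and describes as stably silenced for uL3, the ribosomal protein that RPL3 encodes. Both lines share the genotype written in this line name. Each line was given vehicle or 5 nM actinomycin D (Act D) for 24 h, a DNA-binding drug that at low dose blocks rRNA transcription by RNA polymerase I. Each of the 4 groups had 3 libraries, numbered in the sample titles and called replicates here. The labels do not say that they came from separate cultures. The sub-line is a single established line, so that effects of RPL3 and other differences between the lines cannot be told apart.

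Cells take up amino acids through carriers that differ in substrate and mechanism. The system L carrier SLC7A5 (LAT1) exchanges intracellular glutamine for leucine and other large neutral amino acids. It reaches the membrane only when joined to the glycoprotein heavy chain SLC3A2 (4F2hc, CD98). The glutamine that drives this exchange enters through sodium-dependent carriers of the SLC1 and SLC38 families, and the leucine that comes in is sensed by mTORC1, so that these carriers are much studied in colon cancer. Many of these genes are also targets of ATF4, the transcription factor of the amino acid response.

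Library totals were between 10087925 and 21138886 expected counts. RPL3 transcripts were not lower in the libraries labelled RPL3 KO: the level was between 1111 and 1151 CPM (read counts scaled to a common total, TMM-normalized) in the 6 HCT 116p53-/- libraries and between 1132 and 1337 CPM in the others, a log2 difference of 0.13 ± 0.08 (SE) with vehicle (adjusted p = 0.155, edgeR quasi-likelihood test). The transcript level therefore does not show the silencing that the paper describes, and the uL3 protein was not measured in these libraries. The group is named here by its label. Of 15 colon epithelial markers, 12 could be tested, and with vehicle 10 were lower and 1, KRT18, was higher in the libraries labelled RPL3 KO. Their summed level was between 2716 and 2932 CPM in HCT 116p53-/- cells and between 1648 and 1847 CPM in the sub-line. CDH1 was at no more than 0.701 CPM and CDX2 at no more than 0.343 CPM in each library of the sub-line. KRT8 and KRT18 made up most of the sub-line's sum, with vehicle means of 777 and 840 CPM there. Of 10 mesenchymal markers, 7 could be tested, and 5 were higher and 1, COL1A1, was lower, with VIM at the highest level, and their sum rose from between 30.7 and 37.3 CPM to between 2306 and 2380 CPM. Leukocyte markers (5) summed to at most 29.2 CPM and endothelial markers (4) to at most 2.09 CPM in any library. These differences between the lines run beside each line difference given here, and their part in it was not tested. In cultures measured in bulk, more cells with a transcript and more transcript per cell cannot be told apart.

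SLC7A5 and SLC3A2 encode the 2 chains of one carrier and differed in opposite directions between the lines, so the bases before their start sites are shown. SLC7A5 lies on chromosome 16 (87830023 to 87869507, minus strand, hg38) and SLC3A2 on chromosome 11 (62856004 to 62888880, plus strand). RefSeq (GRCh38.p14) lists 1 start site for SLC7A5 and 3 for SLC3A2. The SLC3A2 window is that of ENST00000338663, which had the largest share of the gene's transcripts (38.9%) in the 1 library deposited per transcript. It lies inside the span of longer SLC3A2 transcripts that begin further upstream. Each window covers the 250 bases before the start, 5′ to 3′ on the gene's strand, with the E-box CACGTG, a motif bound by MYC and related factors, in capitals.
SLC7A5, chr16:87869508-87869757: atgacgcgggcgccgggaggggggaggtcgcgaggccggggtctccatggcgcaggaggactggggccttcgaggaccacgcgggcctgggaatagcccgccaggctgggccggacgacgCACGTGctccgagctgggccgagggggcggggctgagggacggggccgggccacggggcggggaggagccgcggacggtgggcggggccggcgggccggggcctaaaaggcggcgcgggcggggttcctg
SLC3A2, chr11:62880646-62880895: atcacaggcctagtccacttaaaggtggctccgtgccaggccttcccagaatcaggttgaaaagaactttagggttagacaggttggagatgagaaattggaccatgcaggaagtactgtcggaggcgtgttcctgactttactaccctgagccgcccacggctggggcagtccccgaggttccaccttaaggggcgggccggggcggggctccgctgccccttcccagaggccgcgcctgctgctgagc
Both motifs named here were searched on both strands in the 9 genes with a RefSeq window: the E-box CACGTG and TGATGNAA, a form of the C/EBP-ATF response element (CARE) through which ATF4 acts. The E-box was present in 6.34% and the CARE in 3.14% of all 35116 windows of this length. SLC7A5 had 1 E-box, beginning 130 bases before the start, and no CARE, and no SLC3A2 window held either motif. Among the other transporters, only SLC1A5 held any match, with an E-box in 1 and a CARE in another of its 3 windows. A match in such a window describes the letters alone, and its absence says nothing of a factor's binding elsewhere.

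To compare genes with each other, levels were divided by the gene's effective transcript length, averaged over the 12 libraries (CPM per kb). The same length was used for every library, so a change of length between libraries is not corrected for in these levels. In vehicle-treated HCT 116p53-/- cells SLC38A2, a sodium-coupled carrier of small neutral amino acids, and SLC3A2 had the highest levels, 147 ± 13.5 and 143 ± 2.34 CPM per kb (SD, n = 3), and their libraries overlapped. SLC7A5 (110 ± 11.1), the glutamine carrier SLC1A5 (ASCT2; 80.1 ± 5.84) and SLC38A1 (43.0 ± 2.29) followed, each below its predecessor in every library. The cationic amino acid carrier SLC7A1, the light chain SLC7A6, the cationic carrier SLC7A2 and the small neutral amino acid carrier SLC1A4 came last, with SLC1A4 at 1.05 ± 0.266 CPM per kb. SLC6A14, a broad-range carrier of neutral and cationic amino acids, had 0 counts in 6 libraries and at most 3 in the others, and was not tested; 3 counts, the upper limit that a count of 0 allows, stand for between 0.150 and 0.348 CPM in these libraries, for counting error only.

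With vehicle in the libraries labelled RPL3 KO, SLC3A2 came first in this order, at 290 ± 54.1 CPM per kb, above SLC38A2 (145 ± 18.0) in every library. SLC7A5 came at rank 5, with 53.8 ± 5.32 CPM per kb, below SLC1A5 and SLC38A1. SLC7A6 and SLC7A1 were next, with overlapping libraries, and SLC1A4 (4.50 ± 0.0293) stood above SLC7A2 (2.93 ± 0.719). With Act D, SLC1A5 ranked second in HCT 116p53-/- cells (96.9 ± 4.43 CPM per kb), but its libraries overlapped those of SLC38A2. The 10 genes together came to 561 ± 14.8 CPM per kb in HCT 116p53-/- cells with vehicle and 468 ± 6.27 with Act D, and to 712 ± 62.7 and 515 ± 1.96 in the libraries labelled RPL3 KO.

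**Figure D1:**
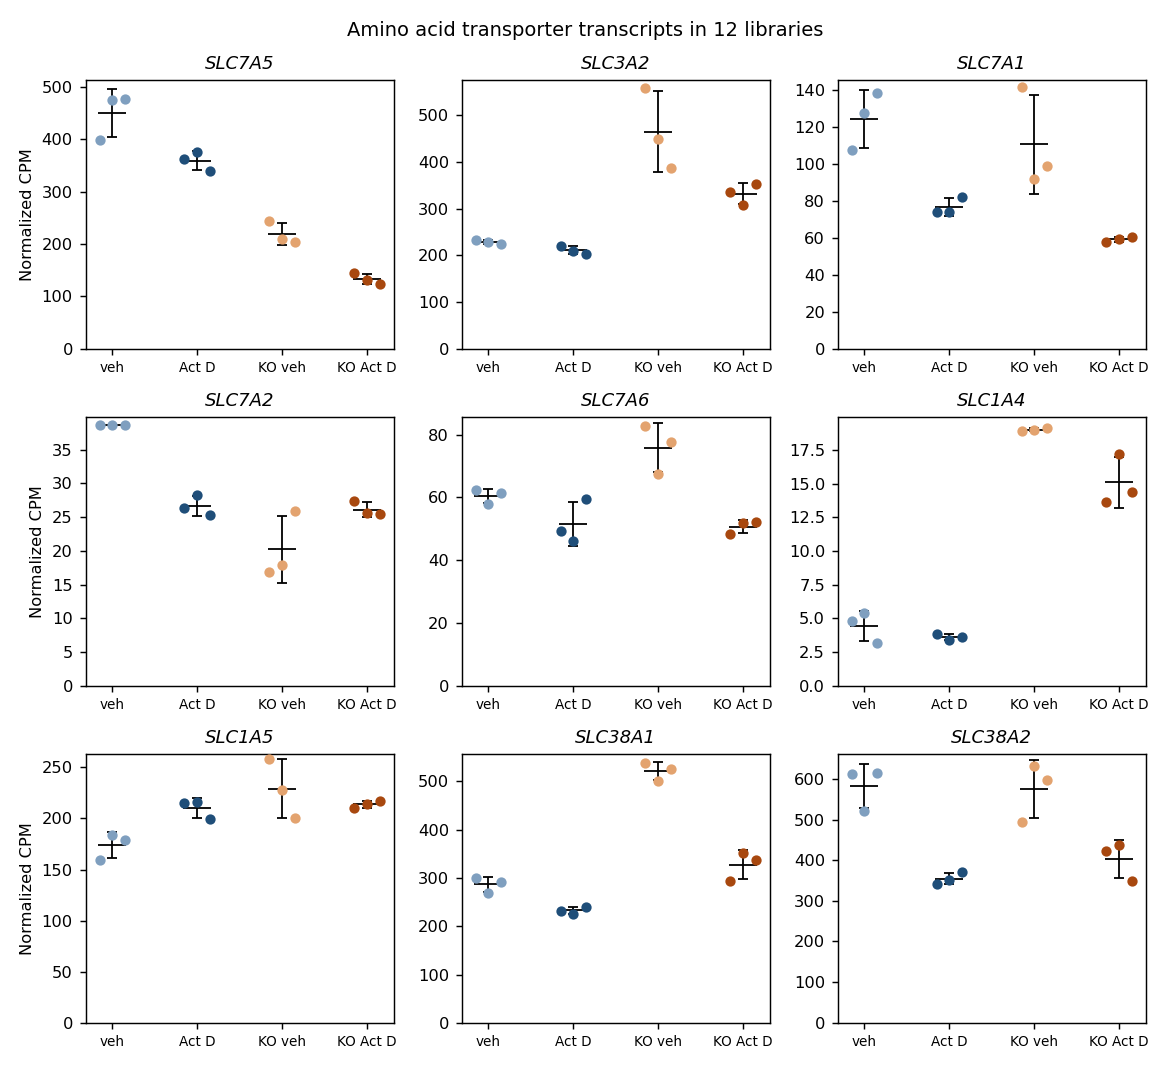
TMM-normalized CPM (vertical axes, from 0, a scale for each gene) of the 9 tested transporters in each library. Points are libraries and bars are the mean ± SD of 3, for HCT 116p53-/- cells with vehicle (veh) and Act D and for the libraries labelled RPL3 KO (KO) with vehicle and Act D; SLC7A5 is lower and SLC1A4 higher in all 6 KO libraries than in all 6 others.

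The first comparison asked how the lines differed without drug. Of the 9 tested transporters, 5 were higher in level and 2 lower in the libraries labelled RPL3 KO with vehicle, where 35.1% of all genes tested were higher and 36.2% lower. The median log2 fold change was 0.32 over the 9 transporters and -0.02 over all genes tested. A count of 7 of 9 past the threshold stands beside a background of nearly as large a share, so the sizes and directions of single genes carry the description.

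SLC7A5 was measured at 398, 475 and 477 CPM in the vehicle-treated HCT 116p53-/- libraries and at 244, 209 and 204 CPM in those labelled RPL3 KO. Every library of the sub-line was below every library of the parental line, and the level was 2.06-fold lower (log2 fold change -1.04 ± 0.10 SE, adjusted p = 2.08e-08, edgeR quasi-likelihood test with Benjamini-Hochberg adjustment). SLC3A2, its partner, was measured at 233, 229 and 225 CPM against 559, 450 and 388 CPM. Here the sub-line was higher in every library, by 2.03-fold (1.02 ± 0.11, adjusted p = 1.01e-07), with a wide spread among its 3 libraries.

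The opposite differences changed the ratio of the chains. SLC7A5 over SLC3A2, per length, was 0.673, 0.817 and 0.835 in vehicle-treated HCT 116p53-/- libraries and 0.172, 0.183 and 0.208 in those labelled RPL3 KO. With Act D the ratio was 0.646, 0.706 and 0.658 against 0.169, 0.168 and 0.138. The lines did not overlap in either condition.

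**Figure D2:**
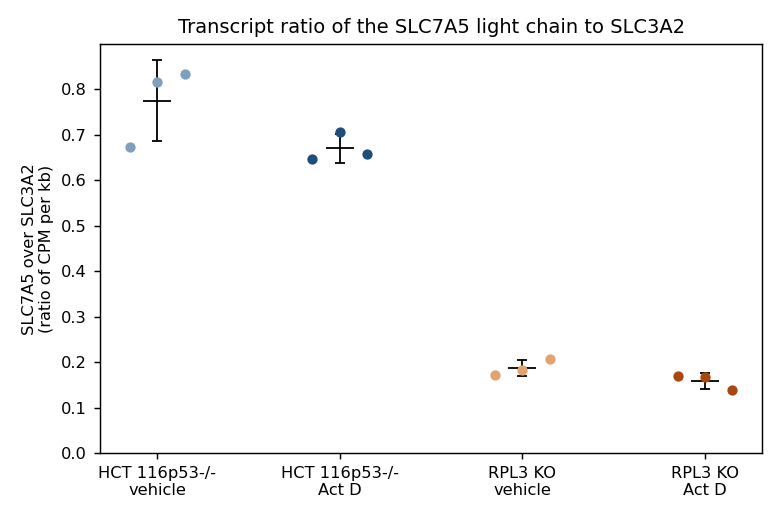
Ratio of SLC7A5 to SLC3A2 transcripts, each in CPM per kb of effective length (vertical axis, from 0), in each library (points) with the mean ± SD of 3 libraries, for the 4 groups. All HCT 116p53-/- libraries lie at or above 0.646 and all libraries labelled RPL3 KO at or below 0.208.

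SLC3A2 also pairs with other light chains, and these were summed per length in a comparison chosen after the values had been seen. The 6 light chains SLC7A5, SLC7A6, SLC7A7, SLC7A8, SLC7A10 and SLC7A11 came to 0.947 ± 0.0860 of the SLC3A2 level (SD, n = 3) in vehicle-treated HCT 116p53-/- cells and to 0.304 ± 0.0370 in the libraries labelled RPL3 KO. SLC7A5 made up a mean of 81.7% of the sum in the first and 61.8% in the second. SLC7A11, the cystine-glutamate exchanger, made up 7.55% and 17.3%, and SLC7A7, SLC7A8 and SLC7A10 each stayed below 2% in both. The ratio of the sum to SLC3A2 lay between 0.850 and 1.01 in the vehicle libraries of HCT 116p53-/- and between 0.275 and 0.346 in the vehicle libraries of the sub-line.

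Next came the 4 carriers of glutamine and small neutral amino acids among the 10 genes. SLC38A1 had 299.5, 269.9 and 291 CPM in HCT 116p53-/- cells and 539, 501 and 526 CPM in the libraries labelled RPL3 KO, without overlap, a 1.82-fold difference (0.86 ± 0.08, adjusted p = 3.44e-08, edgeR). SLC1A5 had 160, 184 and 179 CPM against 258, 228 and 200 CPM, also without overlap but only 1.32-fold apart (0.40 ± 0.09, adjusted p = 0.000811). SLC38A2, which is induced by amino acid shortage in many cells, had 612, 520.1 and 614 CPM against 494, 632 and 597 CPM.
The SLC38A2 libraries of the lines overlapped, and the log2 difference lay between -0.22 and 0.19 (95% interval). SLC1A4 (ASCT1), a carrier of alanine, serine and cysteine, had the widest difference of the 9: 4.80, 5.37 and 3.20 CPM in HCT 116p53-/- cells against 19.0, 19.0 and 19.2 CPM, 4.29-fold higher in the sub-line (2.10 ± 0.16, adjusted p = 1.87e-09).

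Of the cationic amino acid carriers, SLC7A2 was measured at 38.6, 38.7 and 38.6 CPM in vehicle-treated HCT 116p53-/- libraries and at 16.9, 17.9 and 25.9 CPM in those labelled RPL3 KO. Its groups did not overlap, and it was 1.91-fold lower in the sub-line (-0.94 ± 0.13, adjusted p = 3.58e-06, edgeR). SLC7A1 (CAT1), the widely expressed arginine and lysine carrier, had 107, 128 and 138 CPM against 141, 91.5 and 98.8 CPM. Replicate 1 of the sub-line was above all the others and the groups overlapped (-0.17 ± 0.13, adjusted p = 0.238); without that library the difference was -0.38 (adjusted p = 0.00228). SLC7A6 (y+LAT2), an SLC3A2-bound exchanger of cationic for neutral amino acids, had 62.3, 58.0 and 61.3 CPM against 82.7, 67.3 and 77.6 CPM, 1.25-fold higher in the sub-line without overlap (0.32 ± 0.10, adjusted p = 0.00779). CPM are not corrected for length, and its effective length was 5193 to 5583 bases against 4482 to 4905 bases in the sub-line. SLC7A6OS, which overlaps it on the opposite strand, was also higher there (0.42 ± 0.10, adjusted p = 0.000672, edgeR). The part of either in this difference was not tested.

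These differences depend on the scaling where they are small. Scaling by library size alone moved the median of all genes to -0.26 in both line comparisons, and 3 transporters were then higher and 4 lower with vehicle. SLC7A6 and SLC1A5 lost their call under it (adjusted p = 0.485 and 0.181), and SLC7A1 and SLC38A2 were called lower (-0.41 and -0.26).

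**Figure D3:**
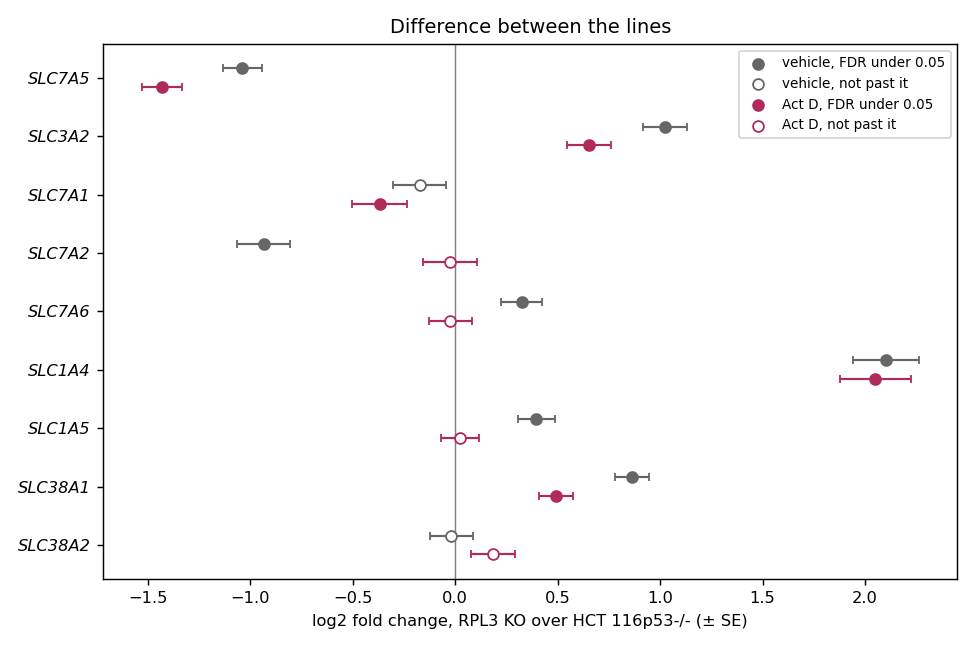
Log2 fold change (horizontal axis) of each transporter in the libraries labelled RPL3 KO over HCT 116p53-/-, with vehicle (grey) and with Act D (magenta); bars are ± SE and filled points have an FDR under 0.05 (edgeR). SLC1A4, SLC3A2 and SLC38A1 lie above 0 and SLC7A5 below 0 in both conditions.

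With Act D the lines differed in fewer of these genes. Of the 9, 3 were higher in the libraries labelled RPL3 KO and 2 lower, where 35.1% of all genes tested were higher and 35.3% lower, and the median log2 fold change was 0.02 beside -0.02 for all genes. SLC7A5 was at 361, 376 and 340 CPM in HCT 116p53-/- cells and at 144, 131 and 124 CPM in the sub-line, 2.70-fold lower without overlap (-1.43 ± 0.10, adjusted p = 4.02e-10, edgeR). SLC3A2 was at 220, 209 and 204 CPM against 335, 308 and 352 CPM, 1.57-fold higher (0.65 ± 0.11, adjusted p = 2.59e-05). SLC1A4 was at 3.86, 3.38 and 3.62 CPM against 13.7, 17.2 and 14.4 CPM, 4.14-fold higher (2.05 ± 0.17, adjusted p = 7.47e-09).
SLC3A2 and SLC1A4 thus stood higher in every library of the sub-line with Act D too. SLC38A1 was at 232, 225 and 240.5 CPM against 293, 351 and 338 CPM, 1.41-fold higher (0.49 ± 0.08, adjusted p = 3.76e-05). SLC7A1 was at 73.6, 73.8 and 82.0 CPM against 57.8, 59.3 and 60.5 CPM, 1.29-fold lower (-0.37 ± 0.13, adjusted p = 0.0211), a call that was lost without replicate 3 of HCT 116p53-/- (0.0518) or replicate 1 of the sub-line (0.0611). For SLC7A2, SLC7A6, SLC1A5 and SLC38A2 the libraries of the lines overlapped, and the log2 differences were -0.02, -0.02, 0.02 and 0.18 (adjusted p between 0.128 and 0.875). The effective length of SLC7A6, for which CPM are not corrected, was again lower in the sub-line. It was 4491 to 4589 bases in HCT 116p53-/- cells and 3736 to 4170.4 bases in the sub-line.

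The response to Act D was then taken within each line. In HCT 116p53-/- cells 5 of the 9 transporters were lower with Act D and 1 higher, where 11.1% of all genes tested were lower and 7.59% higher. In the libraries labelled RPL3 KO 6 were lower and 0 higher, where 8.4% of all genes were lower and 3.51% higher. At an unadjusted p under 0.05, 1 of the 9 was higher there, and DESeq2 called 0. Shares of all genes, here and below, are those edgeR called at the adjusted threshold, and none was taken at an unadjusted p. The median log2 fold change of the 9 was -0.30 in HCT 116p53-/- cells and -0.51 in the sub-line, beside 0.02 and 0.03 for all genes tested.

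Called lower in both lines were SLC7A5, SLC7A1, SLC38A1 and SLC38A2. SLC38A2 fell in HCT 116p53-/- cells from 612, 520.1 and 614 CPM to 342, 352 and 369.97 CPM, a 1.64-fold lower level (-0.72 ± 0.11, adjusted p = 0.000118, edgeR quasi-likelihood test). In the sub-line it fell from 494, 632 and 597 CPM to 423, 437 and 348 CPM (-0.51 ± 0.11, adjusted p = 0.00348). No treated library of either line reached the lowest vehicle library of that line. SLC7A1 went from 107, 128 and 138 CPM to 73.6, 73.8 and 82.0 CPM in HCT 116p53-/- cells (-0.70 ± 0.13, adjusted p = 0.001). In the sub-line it went from 141, 91.5 and 98.8 CPM to 57.8, 59.3 and 60.5 CPM, a 1.86-fold lower level (-0.90 ± 0.13, adjusted p = 0.000245).
SLC7A1 thus had the largest drop of the 9 genes in the sub-line, and its groups did not overlap in either line.

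SLC7A5 was 1.25-fold lower with Act D in HCT 116p53-/- cells (-0.33 ± 0.09, adjusted p = 0.0218, edgeR) and 1.64-fold lower in the libraries labelled RPL3 KO (-0.72 ± 0.10, adjusted p = 9.80e-05). Its treated and untreated libraries, given above, did not overlap in either line. In HCT 116p53-/- cells the call was lost without vehicle replicate 2 or 3 or Act D replicate 1 or 3, with adjusted p between 0.0683 and 0.108. SLC38A1 was 1.23-fold lower in HCT 116p53-/- cells (-0.30 ± 0.08, adjusted p = 0.0156) and 1.59-fold lower in the sub-line (-0.67 ± 0.08, adjusted p = 4.18e-05), again without overlap. Its call in HCT 116p53-/- cells was lost without vehicle replicate 1 or Act D replicate 1 or 2, with adjusted p between 0.059 and 0.0738.

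SLC3A2 and SLC7A6 were called in the sub-line and not in HCT 116p53-/- cells. SLC3A2 was 1.40-fold lower with Act D in the libraries labelled RPL3 KO (-0.49 ± 0.10, adjusted p = 0.00487, edgeR), where even its lowest vehicle library, at 388 CPM, was above the highest treated one, at 352 CPM. In HCT 116p53-/- cells its log2 change was -0.12 ± 0.11 (adjusted p = 0.492). All treated libraries there, at 204 to 220 CPM, were nonetheless below all untreated ones, at 225 to 233 CPM. SLC7A6 went in the sub-line from 82.7, 67.3 and 77.6 CPM to 48.3, 51.7 and 52.1 CPM, without overlap (-0.58 ± 0.10, adjusted p = 0.00104). In HCT 116p53-/- cells it was at 49.2, 46.0 and 59.5 CPM with Act D, overlapping the vehicle libraries (-0.23 ± 0.10, adjusted p = 0.124). It was called there when scaled by library size alone (-0.34, adjusted p = 0.0352) and without Act D replicate 3 (-0.33, adjusted p = 0.0479). CPM are not corrected for length, and the effective length of SLC7A6 was also lower with Act D. It fell by 16.5% in HCT 116p53-/- cells and by 14.8% in the sub-line, and its part in the lower counts was not tested. Neither gene's responses differed between the lines past the threshold (interaction -0.37 and -0.35, adjusted p = 0.151 and 0.167).

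SLC1A5 was the 1 gene called higher, in HCT 116p53-/- cells. It went from 160, 184 and 179 CPM to 215, 216 and 199 CPM, 1.21-fold higher without overlap (0.27 ± 0.09, adjusted p = 0.0436, edgeR). This call is weak: with each of the 6 libraries of the comparison left out in turn the adjusted p was between 0.0515 and 0.176, and scaling by library size alone gave 0.18 (adjusted p = 0.291). In the sub-line SLC1A5 overlapped between conditions, at 258, 228 and 200 CPM and then 209.9, 214 and 217 CPM (-0.10 ± 0.09, adjusted p = 0.547). SLC1A4 was not called in either line (-0.29 ± 0.19, adjusted p = 0.316, and -0.34 ± 0.15, adjusted p = 0.155), although in the sub-line all treated libraries were below all untreated ones.

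**Figure D4:**
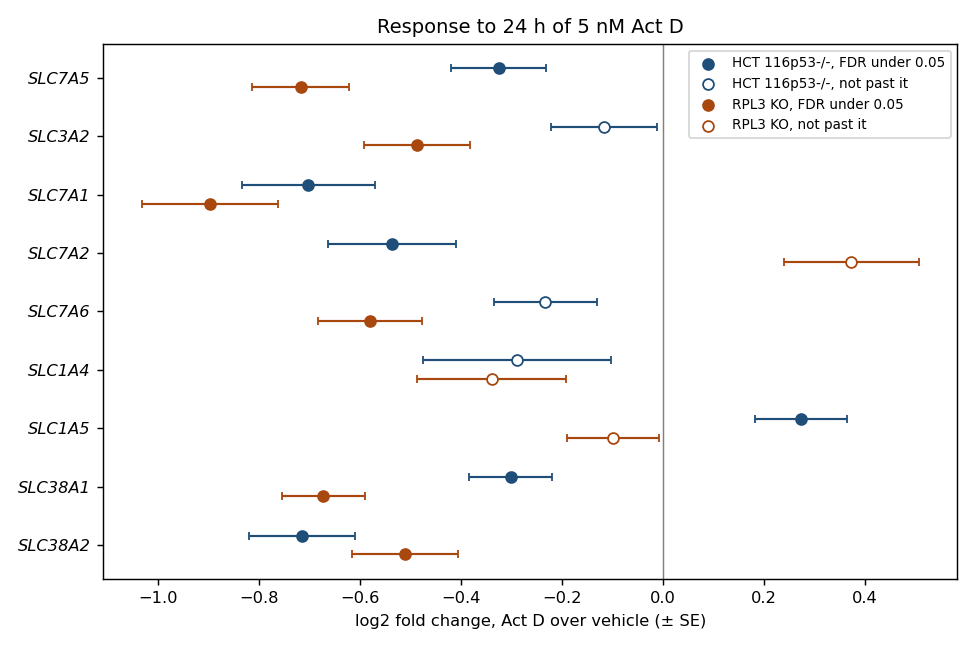
Log2 fold change with Act D over vehicle (horizontal axis) of each transporter in HCT 116p53-/- cells (blue) and in the libraries labelled RPL3 KO (orange); bars are ± SE and filled points have an FDR under 0.05 (edgeR). All points but SLC1A5 in HCT 116p53-/- cells and SLC7A2 in the sub-line lie below 0, and SLC7A2 has its points on opposite sides of 0.

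Whether the lines responded differently was tested as an interaction. Of the 9, 1 passed, with a larger (more positive) change in the sub-line, and 0 passed in the other direction. Of all genes tested, edgeR called 3.3% above 0 and 3.23% below 0. Below 0, 5 of the 9 had an unadjusted p under 0.05, a threshold at which no share of all genes was taken. DESeq2 called 3 of the 9 below 0. Over all genes it made 1271 calls in either direction, 616 of them above 0, where edgeR made 1025. SLC7A2 fell in HCT 116p53-/- cells from 38.6, 38.7 and 38.6 CPM to 26.3, 28.3 and 25.3 CPM (-0.54 ± 0.13, adjusted p = 0.00605, edgeR). In the libraries labelled RPL3 KO it was at 16.9, 17.9 and 25.9 CPM and then at 27.4, 25.6 and 25.4 CPM (0.37 ± 0.13, adjusted p = 0.0799). The untreated libraries of the sub-line were spread, and 1 of them lay among the treated ones.
The difference of the responses was 0.91 ± 0.18 on the log2 scale (adjusted p = 0.00641), and its adjusted p stayed between 9.41e-05 and 0.0236 under all 18 alternatives. With Act D the SLC7A2 libraries of both lines lay between 25.3 and 28.3 CPM, with a log2 difference between -0.28 and 0.23 (95% interval). For SLC7A5, SLC38A1 and SLC1A5 the interaction was -0.39, -0.37 and -0.37, with adjusted p of 0.0917, 0.0652 and 0.0944, and DESeq2 placed all 3 past the threshold (0.0377, 0.0219 and 0.0483). Below 0 in the interaction, by whatever size, were 7 of the 9 genes. The median was -0.35 over the 9 and -0.0074 over all genes tested, of which the share below 0 was not counted.

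RSEM also gave each gene an effective length weighted by the abundance of its transcripts, which moves when the mix of transcripts moves. SLC7A6 was shorter with Act D in both lines. Its effective length was 5583, 5481 and 5193 bases in vehicle-treated HCT 116p53-/- libraries and 4493, 4589 and 4491 bases with Act D, and in the libraries labelled RPL3 KO it was 4482, 4905 and 4662 bases and then 4170.4, 4057 and 3736 bases. The groups did not overlap in either line, and the means fell by 16.5% and 14.8%. A lower length in both lines without overlap was found for 1 of the 9 transporters, SLC7A6, and for 0.609% of the 15423 genes with a length in every library, whose median change was -0.00819% in HCT 116p53-/- cells and -0.331% in the sub-line. In the library deposited per transcript, the 3 most abundant transcripts, of 6255, 5418 and 6308 bases, held 54.6%, 20.4% and 13.7% of SLC7A6.
SLC7A6OS, a gene on the opposite strand, overlaps SLC7A6 by 17321 bases, and no source used here says that reads were counted by strand. Its level rose with Act D in HCT 116p53-/- cells from between 18.7 and 19.0 CPM to between 24.9 and 25.1 CPM (0.41 ± 0.10, adjusted p = 0.00599, edgeR), and was 0.24 ± 0.10 higher on the log2 scale in the sub-line (adjusted p = 0.121). The part of SLC7A6OS in the length of SLC7A6 was not tested.

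**Figure D5:**
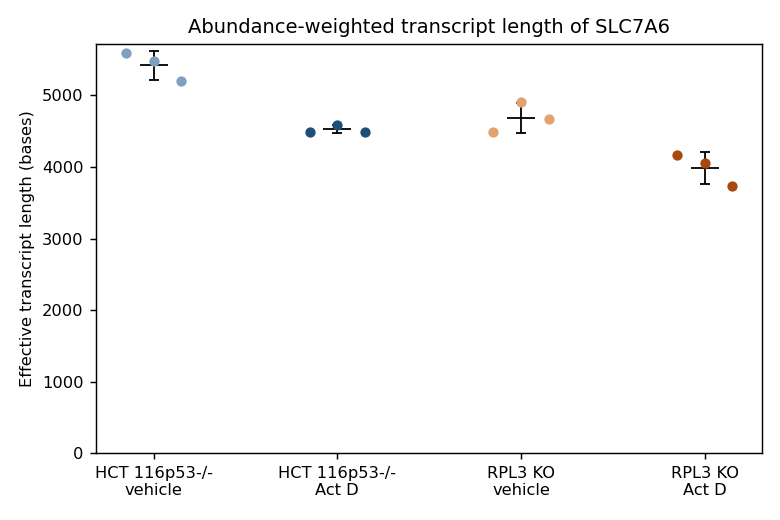
Abundance-weighted effective transcript length of SLC7A6 in bases (vertical axis, from 0) in each library (points), with the mean ± SD of 3 libraries, for the 4 groups. In both lines the Act D libraries lie below all vehicle libraries of the line, between 4491 and 4589 bases in HCT 116p53-/- cells and between 3736 and 4170.4 bases in the libraries labelled RPL3 KO.

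The genes whose profile over the 12 libraries lay nearest to that of SLC7A5, by Euclidean distance of centred log2 CPM among 11728 genes, were DHX34 (0.275), FOXK2 (0.276) and NPLOC4 (0.362). FOXK2, a forkhead transcription factor, had means of 165 and 124 CPM in HCT 116p53-/- cells with vehicle and Act D and of 78.2 and 50.0 CPM in the libraries labelled RPL3 KO. NPLOC4, a cofactor of the VCP segregase, went from 214 and 167 CPM to 102 and 61.3 CPM. SLC3A2 ranked 8708th in this order, and the nearest of the other 8 tested transporters was SLC7A1, at rank 2814.

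Among 42 further amino acid transporters 23 could be tested. With vehicle 9 of the 23 were higher in level and 7 lower in the libraries labelled RPL3 KO (median log2 fold change 0.30), beside 35.1% and 36.2% of all genes tested. Some of these transporters were measured almost entirely in 1 line. SLC38A4, a carrier of neutral and cationic amino acids, had 1 to 2 counts per library in vehicle-treated HCT 116p53-/- cells and 42.5 to 60.3 CPM in the sub-line (adjusted p = 2.89e-15, edgeR). It is the neighbour of 2 of the transporters described above: SLC38A1 (46183063 to 46270017), SLC38A2 (46358188 to 46372773) and SLC38A4 (46764761 to 46832408) follow each other on chromosome 12, all on the minus strand. With vehicle these neighbours were higher, not called and higher, in that order, in the libraries labelled RPL3 KO.
SLC43A1 (LAT3), a leucine carrier that needs no SLC3A2, had 0.583 to 1.93 CPM in vehicle-treated HCT 116p53-/- libraries and 30.4 to 31.3 CPM in the sub-line (4.64 ± 0.22, adjusted p = 2.92e-12). SLC38A5, a glutamine and glycine carrier, went the other way, from 23.1 to 29.0 CPM down to at most 3 counts in any library of the sub-line (adjusted p = 5.34e-14). SLC6A17, a carrier of neutral amino acids known from synaptic vesicles, had 18.3 to 23.1 CPM against at most 1 count (adjusted p = 1.17e-13), and SLC1A1, a glutamate carrier, was lower (-4.80 ± 0.30). With Act D 8 of the 23 were higher and 4 lower in the sub-line (median 0.21), beside 35.1% and 35.3% of all genes tested. SLC38A4, SLC43A1 and SLC38A6 were the widest of the transporters higher there with a mean of at least 5 CPM in a group.

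With Act D, 5 of the 23 further transporters were lower and 0 higher in HCT 116p53-/- cells (median -0.21), beside 11.1% and 7.59% of all genes tested. SLC38A10 had the largest fall of the 5 and went from a mean of 62.5 CPM to 32.4 CPM (-0.95 ± 0.13, adjusted p = 8.08e-05, edgeR). In HCT 116p53-/- cells, at an unadjusted p under 0.05, 2 of the 23 were higher. In the libraries labelled RPL3 KO 2 were higher and 2 lower (median 0.12), beside 3.51% and 8.4% of all genes. SLC7A11 went there from 134 ± 9.63 to 76.8 ± 15.4 CPM (SD, n = 3; -0.81 ± 0.12, adjusted p = 0.000217), while its change in HCT 116p53-/- cells was -0.10 ± 0.12 (adjusted p = 0.615). SLC36A4, a carrier of proline and tryptophan, went from 16.6 to 24.1 CPM (0.54 ± 0.11, adjusted p = 0.00379).
The interaction called 2 of the 23, SLC7A11 (-0.71 ± 0.17, adjusted p = 0.0167) and SLC38A10 (0.91, adjusted p = 0.00817), which are named here because they were called. Of all genes tested, 3.23% were called below 0 and 3.3% above 0 in the interaction.

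Genes of the amino acid response were read beside the transporters, and all 20 could be tested. The list held ATF4, targets of ATF4 and EIF2AK4, the gene of a kinase upstream of ATF4. With vehicle 12 were higher in level and 4 lower in the libraries labelled RPL3 KO (median 1.08), and with Act D 10 were higher and 5 lower (median 0.38). Of all genes tested 35.1% were higher and 36.2% lower with vehicle, and 35.1% and 35.3% with Act D. ATF4 itself was 1.11 ± 0.09 higher with vehicle (adjusted p = 1.91e-09, edgeR), and the widest were VLDLR, a lipoprotein receptor (4.52 ± 0.37, adjusted p = 4.47e-09), ATF3 (2.25 ± 0.16) and DDIT4 (1.97 ± 0.13). ATF5 (-1.55 ± 0.13), PYCR1, an enzyme of proline synthesis (-1.24 ± 0.09), and PSPH, of serine synthesis (-1.01 ± 0.11), were lower.
With Act D 4 of the 20 were higher and 3 lower in HCT 116p53-/- cells (median -0.13), and 0 were higher and 8 lower in the sub-line (median -0.28), where 1 was higher at an unadjusted p under 0.05. Among all genes tested, 7.59% rose and 11.1% fell with Act D in the parental line, while 3.51% rose and 8.4% fell in the sub-line. CHAC1, a glutathione-degrading enzyme, fell in both lines, from 6.26 to 3.81 CPM (-0.70 ± 0.22, adjusted p = 0.0294) and from 24.3 to 8.15 CPM (-1.54 ± 0.19, adjusted p = 4.04e-05). SESN2, a leucine sensor that restrains mTORC1, rose from 15.3 to 40.6 CPM in HCT 116p53-/- cells (1.41 ± 0.13, adjusted p = 1.45e-06) and fell from 36.1 to 24.5 CPM in the sub-line (-0.55 ± 0.13, adjusted p = 0.0109). Its interaction was -1.95 ± 0.19 (adjusted p = 1.62e-05). In that direction 4 of the 20 genes were called, and 0 in the other (1 at an unadjusted p under 0.05), beside 3.23% and 3.3% of all genes tested. ATF3, CEBPB and ASNS were the others called with SESN2, and are named because they were called. ATF4 was lower with Act D in both lines (-0.26 ± 0.09, adjusted p = 0.0401, and -0.40 ± 0.08, adjusted p = 0.00423).

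Enzymes of amino acid and polyamine metabolism made a list of 15 genes, of which 13 could be tested. With vehicle 8 were higher in level and 1 lower in the libraries labelled RPL3 KO (median 1.04), and with Act D 7 were higher and 2 lower (median 0.68), beside the same shares of all genes as for the amino acid response. ARG2, an arginase (2.41 ± 0.11, adjusted p = 1.37e-12, edgeR), and GLUD1, glutamate dehydrogenase (1.41 ± 0.07, adjusted p = 7.20e-12), were higher with vehicle, and BCAT2, a branched-chain aminotransferase, was lower (-0.46 ± 0.14, adjusted p = 0.0078). With Act D 5 of the 13 rose and 0 fell in HCT 116p53-/- cells (median 0.15, with 1 lower at an unadjusted p under 0.05), and 1 rose and 1 fell in the sub-line (median 0.10), again beside those shares. GLUL, glutamine synthetase, rose in both, from 143 to 230.3 CPM (0.69 ± 0.09, adjusted p = 3.42e-05) and from 292 to 369 CPM (0.34 ± 0.09, adjusted p = 0.0178), while SLC38A1 and SLC38A2 fell. GPT2, an alanine aminotransferase, fell in the sub-line from 42.3 to 26.1 CPM (-0.69 ± 0.11, adjusted p = 0.000303).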

How the data were processed

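RNA-seq libraries (TruSeq, paired reads, NovaSeq) were analysed from 4 groups of 3, grouped by the sample labels. The authors assigned reads to hg38 genes using RSEM (version 1.2.25 in their processing notes). They deposited its expected counts, which are not normalized and divide a read between the transcripts and genes it fits. In 1 library (HCT 116p53-/- vehicle, replicate 2) the deposited values are per transcript, with the percent of the gene for each transcript, and were summed per gene. Transcript lengths are described as deposited, and for levels per kb each gene's effective length was averaged over the libraries where it was above 0. Whether reads were counted by strand is not given in the sources used here.

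Counts were rounded and genes filtered with filterByExpr by group (15692 of 33990 with any count). TMM factors were between 0.847 and 1.148. Of the 60617 gene identifiers, 60261 were matched to GENCODE v44. All 12 libraries were fitted in 1 model with a coefficient per group in edgeR 4.0.16 (R 4.3.3; common dispersion 0.0117), and adjusted p-values are from its quasi-likelihood test with Benjamini-Hochberg adjustment over all genes tested, at a threshold of 0.05. SE is the log2 fold change over the square root of the test's F. The 95% intervals were the log2 fold change ± a normal quantile times this SE, and are narrower than intervals from the test's own distribution. Nothing in the labels says that the replicates came from separate cultures, so p-values measure the spread between these libraries, which may be technical. On simulated counts the test recovered fold changes without bias, but it missed some changed genes and its share of false calls was somewhat above the nominal rate. The first run narrowly missed the limit set for the recovery of changed genes, and the limit was then relaxed.

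The further gene lists, like the members, were chosen with earlier results known. Named genes were all 10 transporters, RPL3, the 3 genes nearest to SLC7A5 and, from the further lists, up to 3 genes (2 for enzymes) in each direction of each comparison with the largest fold change among those past the threshold, provided that either group averaged 5 CPM or more and the groups did not overlap; not every gene so chosen is given. Alternatives were DESeq2 1.42.0, scaling by library size alone or the upper quartile, no filter, a minimum of 1 CPM in 3 or more libraries, a replicate block, fits of the compared groups alone, and the omission of each library in turn. Same-numbered libraries did not deviate together (correlations of deviations between -0.104 and 0.101). No pair of libraries was alike within sampling noise. Sequences are from RefSeq (GRCh38.p14), with 9 of the 10 genes matched. Python 3.11 with pandas 2.3.3 and matplotlib 3.10.9 was used.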

Additional observations from a re-analysis of the deposited data

Results flagged for a closer look

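SLC7A2 stood out because its response to Act D differed between the lines by the test of that difference itself, by 0.91 on the log2 scale (SE 0.18, adjusted p = 0.00641, edgeR interaction): its level was lower with Act D in 3 of 3 HCT 116p53-/- libraries than in any vehicle library, while in the libraries labelled RPL3 KO the treated and vehicle libraries overlapped and the response was not called (0.37, adjusted p = 0.0799).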

How the results depend on the processing

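Of 630 values of single transporters under the alternatives, 595 stayed on the same side of the threshold, 20 lost the call and 15 gained one, and 0 called values changed sign. The number of transporters called in the interaction was 1, but 4 with DESeq2 and 2 with no filter on low counts, and between 1 and 3 with each library left out. Over all genes, edgeR called 1025 in the interaction and DESeq2 called 1271. The number called for Act D in HCT 116p53-/- cells was 6, and between 3 and 5 with each library left out, since SLC1A5 lost its call in each case and SLC7A5 or SLC38A1 in some. The replicate block, in which the numbers do not pair the libraries, gave 5 for that comparison (SLC1A5, adjusted p = 0.0706) and changed no other count. SLC7A2 was called higher with Act D in the libraries labelled RPL3 KO under upper-quartile scaling (0.44, adjusted p = 0.0414) and without vehicle replicate 3 (0.58, adjusted p = 0.00223). The counts of the other comparisons stayed within 1.5 times under every alternative run, though library size alone changed the split with vehicle to 3 higher and 4 lower. The causes of these changes were not tested. SLC1A4 in HCT 116p53-/- cells had the lowest levels per kb of the tested transporters (1.05 with vehicle and 0.856 with Act D), and 3 libraries per group limit all responses near the threshold.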
